A study of Mus musculus with 17 samples.

Results

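Mouse embryonic stem cells of the R1 line were moved from L2i into LFAI medium and sampled by bulk RNA sequencing on days 0 to 4. The time course comprised 5 of the 17 libraries of the series, chosen by their labels: R1 cells in L2i on day 0 and R1 cells after 1, 2, 3 and 4 days in LFAI, with 1 library a day. L2i is serum-free N2B27 medium with LIF, the GSK3 inhibitor CHIR99021 at 3 uM and the MEK inhibitor PD325901 at 0.1 uM. LFAI keeps LIF, leaves out both inhibitors and adds FGF2 at 12 ng/ml, human Activin A at 20 ng/ml and IWP2 at 2 uM, an inhibitor of Wnt secretion. All 5 libraries carried passage number 32. The labels give 5 passages in L2i for day 0, 4 before days 1, 2 and 3 in LFAI, and 3 before day 4.

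Further libraries served as comparisons. LIM medium contains LIF, PD325901 and IWP2, so MEK stays inhibited while GSK3 does not, and R1 cells were sampled after 1, 2, 3 and 4 days in LIM with the same day 0. A second set of 8 libraries held 1 library each of R1 and of CGR8, another mouse embryonic stem cell line, after 35 h in LFAI, after 4 days in LFAI, in LIM and in L2i. Its cells grew on gelatin with Cultrex basement membrane extract, whereas the time course plates were coated with gelatin and fetal calf serum. It was also sequenced with an earlier version of the rapid-run chemistry. Passage numbers in that set ran from 26 to 34, so a difference between the sets cannot be told apart from coating, chemistry or passage. Passages also differed between the groups of that set. The R1 library of 4 days in LFAI had passage number 26 with 3 passages in L2i, and that of L2i had 32 with 10. For CGR8 these were 33 with 9 and 31 with 8. At 35 h they were 31 with 9 in R1 and 30 with 7 in CGR8. Its LIM cells had been passaged in LIM. The part of passage in differences between these groups was not tested. Gene counts totalled 13.5 M reads on day 0 and 13.1 to 13.7 M in the 4 LFAI libraries, and 15.1 to 22.6 M in the set with both lines.

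Naive stem cells resemble the preimplantation epiblast, and primed cells the epiblast after implantation. Inhibition of MEK blocks the ERK signal that FGF4 and FGF2 induce, and inhibition of GSK3 stabilises beta-catenin, the effector of Wnt signalling. FGF2 and Activin A, acting through ERK and through SMAD2 and SMAD3, are the usual supplements for primed cells, and both states depend on Pou5f1 (OCT4) and Sox2. The time course asks which genes change early, in the middle or late when naive cells meet these supplements in the presence of LIF.

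Levels are given as CPM, counts per 1000000 of the library's gene counts after scaling with edgeR's TMM factors, in the order of days 0, 1, 2, 3 and 4 unless stated. A gene was counted as higher or lower where its log2 CPM differed from day 0 by at least 1, that is 2-fold, and 11930 genes reached 5 CPM in at least 1 of the 5 libraries. With 1 library a day no test was possible, and the p-values below come from the set with both lines, with n = 2 libraries a group, where they measure only the spread between these libraries. Where a gene had 0 counts in the lower library the fold is a lower bound set by 3 counts, and where it had 1 to 3 counts the ratio carries a 95% counting interval. Intervals and bounds cover counting error only. In bulk RNA, fewer cells of a kind and less RNA per cell cannot be told apart.

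The promoters of 4 genes that are described below were searched for short motifs. T-cell factors, which carry beta-catenin to DNA, are known to bind CTTTGA, and capitals mark that motif or its reverse complement TCAAAG in the promoters of 3 genes that were lower on every LFAI day. Each stretch runs 5′ to 3′ on the gene's strand, from 250 bases before to 50 bases after the start that RefSeq lists first, in build GRCm38.p6. Sp5 (chr2:70474673-70474972, + strand) encodes a zinc-finger factor induced directly by Wnt signalling, and its promoter held 2 matches, at 204 and 104 bases before the start. T (chr17:8434173-8434472, + strand), the brachyury gene of the primitive streak, held 1 match at 234 bases before the start. Axin2 (chr11:108920099-108920398, + strand), a Wnt target that encodes a negative regulator of beta-catenin, held 0 matches in this window.
Sp5: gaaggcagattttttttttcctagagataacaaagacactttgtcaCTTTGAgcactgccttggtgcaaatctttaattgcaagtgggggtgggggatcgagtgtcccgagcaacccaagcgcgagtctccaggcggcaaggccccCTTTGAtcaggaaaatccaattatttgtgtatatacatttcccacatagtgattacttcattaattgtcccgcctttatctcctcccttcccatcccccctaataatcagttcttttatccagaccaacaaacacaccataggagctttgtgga
T: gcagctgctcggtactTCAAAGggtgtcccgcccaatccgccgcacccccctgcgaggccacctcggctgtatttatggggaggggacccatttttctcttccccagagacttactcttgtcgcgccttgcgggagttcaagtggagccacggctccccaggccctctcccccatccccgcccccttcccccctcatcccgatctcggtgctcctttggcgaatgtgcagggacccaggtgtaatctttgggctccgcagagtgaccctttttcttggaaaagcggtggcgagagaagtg
Axin2: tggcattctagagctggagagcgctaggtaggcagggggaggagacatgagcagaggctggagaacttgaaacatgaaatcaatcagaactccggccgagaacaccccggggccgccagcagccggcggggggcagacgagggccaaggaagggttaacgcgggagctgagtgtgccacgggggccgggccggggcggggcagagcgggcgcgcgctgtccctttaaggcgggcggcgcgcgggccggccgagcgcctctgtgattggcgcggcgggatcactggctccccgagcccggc
The motif CACGTG is its own reverse complement and is known from the promoters of germline genes that are silenced by DNA methylation. Mael (chr1:166238695-166238994, − strand), which acts in the piRNA pathway of germ cells, is shown because it was among the germline genes with the largest difference on day 4, and capitals mark the motif at 223 bases before the start.
Mael: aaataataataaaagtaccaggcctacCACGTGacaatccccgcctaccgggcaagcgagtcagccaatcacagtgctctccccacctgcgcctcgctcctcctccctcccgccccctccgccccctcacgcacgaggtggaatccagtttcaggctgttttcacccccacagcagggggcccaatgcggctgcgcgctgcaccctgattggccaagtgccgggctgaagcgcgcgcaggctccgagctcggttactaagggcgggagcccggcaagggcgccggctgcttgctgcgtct
CTTTGA on either strand was present in 23.8% of the promoters of genes that became lower from day 1 onward, 24 of the 101 that had an entry, against 11.4% of the 9243 genes at 5 CPM with an entry. Without the library labelled LFAI day 1 these genes join those that became lower from day 2, and 14.5% of that joint set held the motif, 77 of 532. The other waves of genes described below held it in 7.91% to 12.6% of promoters, and 16.2% of all 27025 listed symbols held it. Of 11 Wnt targets with an entry, 3 held it, namely Sp5, T and Dkk1. CACGTG was present in 8 of 16 germline genes with an entry and in 10.7% of the genes at 5 CPM. These are matches of letters in 300 bases, not binding sites.

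The library labelled LFAI day 1 stood close to LIM on the same day. It differed by at least 2-fold from LIM day 1 at 74 genes, 0.62% of those at 5 CPM, and from LIM day 2 at 103 genes. The same library differed from day 0 at 665 genes and from LFAI day 2 at 1736 genes. On later days LFAI and LIM differed at 1618 genes on day 2, at 2419 on day 3 and at 2562 on day 4, which is 13.6%, 20.3% and 21.5% of genes. Genes that report the difference in the media showed the same pattern. Dusp6, a phosphatase gene that ERK signalling induces (chr10:99263231-99267489, + strand in GRCm38), had 9.25, 78.6, 109 and 101 CPM on LFAI days 1 to 4, against 9.88, 11.7, 11.5 and 14.7 CPM on LIM days 1 to 4. LFAI day 1 lay just below the LIM libraries, in which MEK was inhibited, and LFAI days 2 to 4 lay far above all of them. Spry4, an inhibitor of receptor tyrosine kinase signalling, had 2.86, 86.1, 48.8 and 28.7 CPM on LFAI days 1 to 4 and 2.21, 3.66, 4.28 and 4.62 CPM on LIM days 1 to 4, so it also separated the media from day 2 onward. The labels put the library in LFAI for 1 day. Whether its cells had not yet responded or the library holds other cells than its label says was not tested, and counts of waves and transient genes are given with and without it. Day 1 levels and day 1 counts rest on this library alone, whereas values on days 2 to 4 do not use it.

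**Figure D1:**
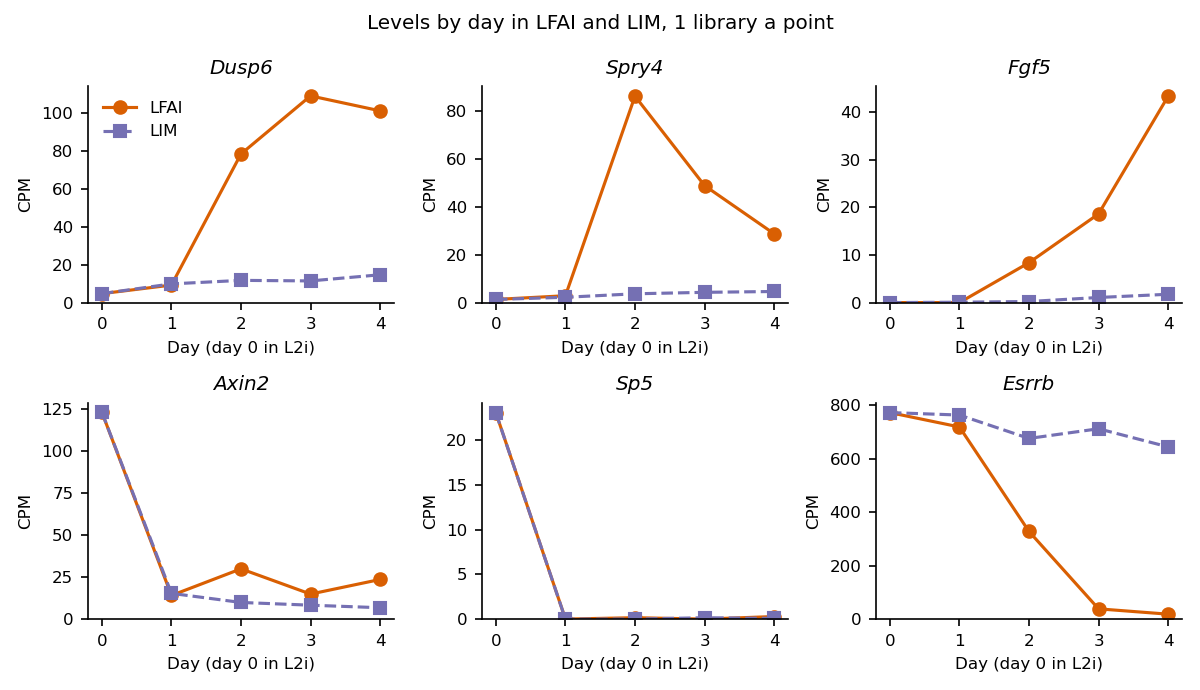
Levels of Dusp6, Spry4, Fgf5, Axin2, Sp5 and Esrrb by day in LFAI (circles) and in LIM (squares), with the shared L2i library as day 0. Each point is 1 library and the vertical axes give CPM on linear scales; the library labelled LFAI day 1 lies near LIM day 1 in all 6 panels, and Dusp6 reaches 101 CPM in LFAI on day 4 against 14.7 CPM in LIM.

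Markers of embryonic stem cells were present in every library. Pou5f1 had 1380.3, 1428, 1679.5, 1479 and 1329 CPM, Sox2 had 191, 246, 227, 111 and 103 CPM and Sall4 had 222, 283, 262, 194 and 209 CPM. None of these 3 factors of the pluripotent network differed from day 0 by 2-fold on day 4. The other stem cell markers checked did, as described below: Lin28a and Utf1 were higher and Zfp42 was lower. Markers of 4 other cell types were measured too. Of 13 primitive endoderm markers 6 reached 5 CPM, and their summed level was 72.0 CPM on day 0 and 125, 149, 198 and 273 CPM on LFAI days 1 to 4. On day 4, 4 of the 6 were past 2-fold higher than on day 0 and 1 was lower, with a median log2 difference of 1.70. In the set with both lines 10 of the 13 were tested. Of these, 3 rose and 3 fell after 4 days in LFAI (edgeR adjusted p under 0.05). Of all 15525 genes tested there, 21.5% rose and 23.3% fell at 4 days. The defining endoderm factors Gata6 and Sox17 stayed at or below 2.40 CPM, and Gata4 had 4.59, 5.58, 2.87, 3.24 and 3.76 CPM. Of 12 trophoblast markers 5 reached 5 CPM, with a sum of 34.3 to 60.9 CPM, and Elf5 had 0 counts on days 2 to 4. Krt18, a keratin gene also present in other epithelia, was the trophoblast marker that was higher on day 4, with 4.15, 4.19, 11.2, 15.7 and 23.7 CPM. In the set with both lines 10 of the 12 were tested, and 3 rose and 3 fell at 4 days. Of 8 fibroblast markers 2 reached 5 CPM, and their list sum was 9.80 CPM on day 0 against 46.2 CPM on day 4, most of it Fbn1 with 32.1 CPM. Lum had 0 counts in all 5 libraries, and Postn had 0 counts on days 0 to 2 and 1 count on each of days 3 and 4. In the set with both lines 5 of the 8 were tested. At 4 days 4 of these rose and 0 fell, with a median log2 difference of 2.76. Of 10 neural progenitor markers 3 reached 5 CPM, namely Nes, Pax6 and Sox1, and the list sum was 54.8, 156.5, 61.1, 120.6 and 200.5 CPM, most of it Nes, which had 164 CPM on day 4. The part of these markers in the results below was not tested.

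The number of genes past 2-fold grew on each day, with the largest day-to-day step between days 1 and 2. On LFAI day 1, 389 genes were higher and 276 were lower than on day 0, which is 3.26% and 2.31% of the 11930 genes at 5 CPM. The counts were 1018 higher and 937 lower on day 2, or 8.53% and 7.85%, then 1323 higher and 1316 lower on day 3, or 11.1% and 11.0%, and 1457 higher and 1364 lower on day 4, or 12.2% and 11.4%. Between neighbouring days, 665 genes differed by at least 2-fold from day 0 to day 1, 1736 from day 1 to day 2, 1110 from day 2 to day 3 and 440 from day 3 to day 4. The first 2 of these steps share the library labelled LFAI day 1, and the counts on days 2 to 4 do not use it. Of all genes past 2-fold on day 4, the median gene that was higher had reached 14.7% of its day 4 log2 difference on day 1, 54.2% on day 2 and 85.3% on day 3. For genes that were lower the medians were 3.40%, 55.9% and 90.9%.

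**Figure D2:**
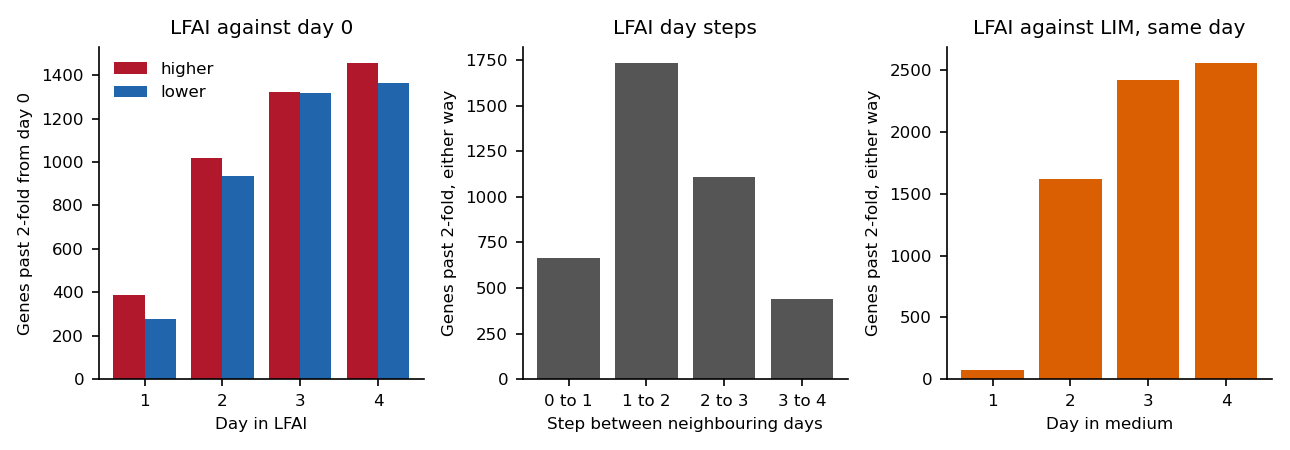
Genes past 2-fold among the 11930 at 5 CPM, from day 0 on each LFAI day (left), between neighbouring LFAI days (middle) and between LFAI and LIM on the same day (right). Bars count genes; 389 and 276 genes were higher and lower on LFAI day 1 and 1457 and 1364 on day 4, the step from day 1 to day 2 held 1736 genes, and LFAI and LIM differed at 74 genes on day 1.

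Genes were sorted into waves by the first day from which they stayed past 2-fold in 1 direction through day 4. The early wave, from day 1, held 200 genes that were higher and 141 that were lower. The middle wave, from day 2, held 566 and 564. The late wave held 691 and 659, of which 424 and 407 began on day 3 and 267 and 252 on day 4. A further 330 and 349 genes were transient, past 2-fold on at least 1 of days 1 to 3 and within 2-fold on day 4. Leaving out the library labelled LFAI day 1 leaves no early wave by construction, moves its genes to the middle wave with 766 higher and 705 lower, and leaves the late wave at 691 and 659. Without day 2 the late wave would hold 1232 higher and 1217 lower genes, since the middle wave rests on that library. 

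Genes that were lower in the early wave were nearer to their day 4 level on day 1 than genes that were higher. Its 141 lower genes had reached a median of 64.2% of their day 4 log2 difference on day 1 and 98.5% on day 2, while its 200 higher genes had reached 46.2% and 73.2%. The sorting of this wave and the shares on day 1 rest on the library labelled LFAI day 1. Targets of Wnt signalling were among the early genes that were lower. Axin2 had 123, 14.0, 29.8, 14.8 and 23.5 CPM and Sp5 had 23.1, 0, 0.155, 0 and 0.284 CPM, and Cdx1, a homeobox gene and Wnt target, had 34.9, 0, 0.0775, 0 and 0.142 CPM. Sp5 and Cdx1 had 0 counts on days 1 and 3 and no more than 4 counts on the other LFAI days, and T had 12.5, 0.0734, 0, 0.216 and 0.639 CPM. Nkx1-2, a homeobox gene of the streak and tail bud, had 91.5, 4.70, 0.775, 2.59 and 1.56 CPM, and Ntn1, the secreted guidance cue netrin 1, had 131, 10.7, 9.76, 2.09 and 1.07 CPM. All 6 of these genes had their highest level on day 0. LIM day 1 was close to the library labelled LFAI day 1, and there Axin2 had 15.3 CPM and Ntn1 10.0 CPM. LFAI and LIM both leave out CHIR99021 and contain IWP2.

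The 6 genes named by the largest day 4 difference among early genes that were lower were Crxos, Trpm1, Cnga4, Dmgdh, Htr5a and Sh2d4b. Crxos, a homeobox gene of the early embryo, had 136, 62.4, 3.80, 1.01 and 0.355 CPM, and its day 4 level was 383-fold lower than on day 0. Trpm1, a cation channel gene best known from melanocytes and the retina, had 95.7, 10.6, 0.465, 0.432 and 0.355 CPM and was 269-fold lower on day 4. Cnga4, a channel subunit of olfactory neurons, had 0 counts on day 4 and was at least 90.9-fold lower. Tfcp2l1, a naive pluripotency factor downstream of LIF, belonged to this wave too, with 1230.1, 527, 103, 25.2 and 16.1 CPM. Its level was lower on each day than on the day before, as it was for Crxos, Trpm1, Ntn1 and Lrrc31. Of genes at 5 CPM, 574 had this course, 276 of them past 2-fold on day 4, and 699 were higher on each day than on the day before, 499 of them past 2-fold.

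Early genes that were higher included regulators, enzymes and a ligand, and those described here were higher on day 2 than on day 1. Otx2, a transcription factor that drives the exit from the naive state, had 13.6, 87.3, 265, 189 and 142 CPM, with its peak on day 2. Myrf, a membrane-bound transcription factor known from oligodendrocytes, had 1.89, 18.6, 354, 318 and 208 CPM, 9.81-fold higher on day 1 and 109.8-fold higher on day 4. Mmp25, a membrane-anchored matrix metalloprotease, had 0.291, 3.75, 12.5, 58.1 and 88.4 CPM and was 304-fold higher on day 4. Dll1, a ligand of Notch receptors, had 0.146, 3.08, 27.7, 41.9 and 39.8 CPM and was 273-fold higher (95% counting interval 75.3 to 2261) on day 4. These 4 genes had day 1 levels close to those of LIM day 1, at 83.2, 18.0, 5.14 and 2.93 CPM. Pkdcc, Enpp2 and Tmem246 completed the 6 early genes with the largest day 4 difference, and each had at most 0.0728 CPM on day 0. Enpp2, the enzyme autotaxin that makes lysophosphatidic acid, had 0, 0.220, 6.43, 8.29 and 17.9 CPM. Its day 1 level lay at the floor of 3 counts, so its onset on day 1 is uncertain and its level was clear only from day 2.

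The middle wave began on day 2 by its definition, and its boundary with the early wave rests on the library labelled LFAI day 1. Higher genes of the middle wave had a median of 10.6% of their day 4 log2 difference on day 1 and 73.5% on day 2. Its lower genes had 2.80% and 74.8%. In every wave, shares before the day of onset are limited by the sorting. Fgf5, the FGF ligand of the early postimplantation epiblast (chr5:98254184-98277030, + strand in GRCm38), had 0, 0, 8.37, 18.6 and 43.3 CPM and was at least 198-fold higher on day 4. It had 0 counts on days 0 and 1 and gained on each later step. Pou3f1 (OCT6), a POU factor of the epiblast, had 1.02, 1.25, 58.7, 133 and 123 CPM, and Fgf15 had 0.801, 1.40, 58.4, 91.7 and 107 CPM. Both were low on days 0 and 1 and far higher from day 2. Kif1a, a kinesin that carries vesicles in axons, had 0.583, 0.881, 2.01, 85.9 and 203 CPM and was 348-fold higher on day 4. It passed 2-fold on day 2 and was highest on day 4. Has2, the hyaluronan synthase, had 0.0728, 0.0734, 2.94, 11.6 and 41.4 CPM and was 569-fold higher (95% counting interval 102 to 22500.0) on day 4, where day 0 rests on 1 count. Car4, a membrane-bound carbonic anhydrase, had 0, 0, 11.1, 30.5 and 46.4 CPM, and Zfp608, a zinc finger gene, had 0.291, 0.147, 5.73, 30.3 and 66.2 CPM.

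The 6 middle-wave genes that were lowest relative to day 0 were Tbx3, Bhmt, Calcoco2, Ly6a, Serpinb1a and Spic. Tbx3, a T-box factor of the naive network, had 129, 147, 15.2, 1.44 and 1.07 CPM and was 121-fold lower on day 4. Calcoco2, an autophagy receptor gene, had 214, 439, 10.1, 1.44 and 1.42 CPM, so its day 1 level was above day 0 and its day 2 level far below it. Spic, an ETS family factor, had 36.6, 40.2, 1.16, 0.216 and 0.213 CPM. Ly6a, which encodes the surface antigen Sca-1, had 67.7, 84.1, 0.620, 0.144 and 0 CPM and was at least 318-fold lower on day 4. In each of the 6 genes, days 2, 3 and 4 all lay below days 0 and 1.

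The late wave reached a median of 30.8% of its day 4 log2 difference on day 2 and 74.9% on day 3 where genes were higher, and 29.0% and 75.9% where they were lower. Late genes that were higher included Fermt1, which encodes the integrin activator kindlin 1, with 0.655, 0.220, 1.01, 8.00 and 13.4 CPM, and Nfasc, the adhesion molecule neurofascin, with 3.93, 3.38, 6.51, 21.3 and 54.9 CPM. Moxd1, a monooxygenase gene, had 0.218, 0.147, 0.232, 2.09 and 12.9 CPM and was 58.9-fold higher (95% counting interval 19.8 to 288) on day 4. Kcnj3, a subunit of G-protein-gated potassium channels, had 0.218, 0.588, 0.542, 8.29 and 29.6 CPM, and Cacna1g, a T-type calcium channel, had 0.583, 0.881, 0.775, 6.56 and 11.2 CPM. These 5 genes were low through day 2 and were higher on each of the following days. Late genes that were lower included Spp1, the secreted phosphoprotein osteopontin, with 503, 835, 279, 57.0 and 23.5 CPM, and H2-M5, a nonclassical class I histocompatibility gene, with 114, 110.2, 68.1, 12.5 and 4.33 CPM. Notum, a secreted enzyme that inactivates Wnt proteins, had 99.98, 106, 63.1, 11.9 and 4.12 CPM and was 24.3-fold lower on day 4. Vax2os had 5.46, 20.0, 2.87, 0.216 and 0.142 CPM, but it is transcribed against Vax2, and whether the counting used strand is not given in the sources used here.

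**Figure D3:**
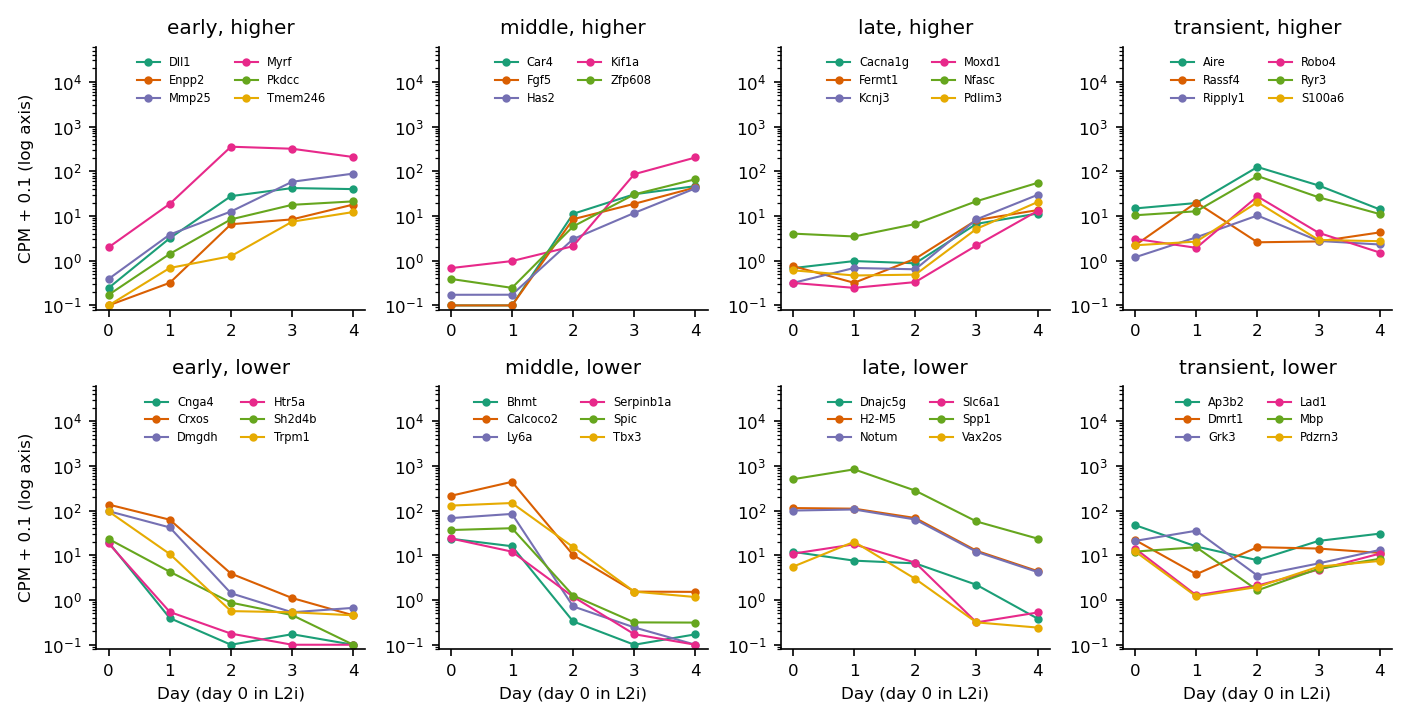
Levels of up to 6 genes named for each wave and direction, by day. Each point is 1 library, and the vertical axis gives CPM plus 0.1 on a log scale; early genes such as Trpm1 left their day 0 level on day 1, Fgf5 and Tbx3 on day 2, Spp1 and Notum were lowest on day 4, and Rassf4 peaked on day 1 alone.

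The transient genes named here had their extremes on days 1 or 2. Aire, the transcriptional regulator of thymic epithelium, had 14.6, 19.4, 124, 48.0 and 13.9 CPM, and Ryr3, an intracellular calcium release channel, had 10.3, 12.6, 78.3, 26.1 and 10.9 CPM. Robo4, a guidance receptor known from endothelium, had 2.99, 1.84, 27.3, 4.11 and 1.42 CPM, and S100a6, a calcium-binding protein gene, had 2.11, 2.57, 20.2, 2.81 and 2.63 CPM. These 4 genes were highest on day 2. On day 4 Aire, Ryr3 and S100a6 were again near their day 0 level, and Robo4 lay below it. Rassf4 had 2.11, 19.9, 2.48, 2.59 and 4.19 CPM and Dmrt1, a testis transcription factor, had 21.8, 3.67, 15.1, 14.1 and 11.2 CPM, so both were past 2-fold in the library labelled LFAI day 1 alone. Lad1, Pdzrn3 and Ap3b2 were lowest on days 1 or 2 and partly regained their level, and Lad1 had 14.1, 1.18, 2.01, 4.68 and 10.8 CPM. Without the library labelled LFAI day 1, 280 genes were transiently higher and 318 transiently lower, against 330 and 349 with it.

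The wave members were then examined in the set with both lines, whose libraries the sorting did not use. There 995 of 11927 tested genes at 5 CPM, or 8.34%, were called higher after 35 h in LFAI than in L2i, and 8.04% lower. After 4 days 22.4% were called higher and 25.2% lower. Between 4 days and 35 h the shares were 18.6% higher and 20.8% lower (edgeR quasi-likelihood test with Benjamini-Hochberg adjustment, adjusted p under 0.05). Over all 15525 genes tested the shares higher and lower were 7.35% and 7.16% at 35 h, 21.5% and 23.3% at 4 days, and 17.7% and 19.0% between 4 days and 35 h.

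The shares of wave members called at 35 h are given beside those at 4 days, and differences between the waves were not tested. Of the 200 early genes that were higher, 117 or 58.5% rose at 35 h, as did 300 of the 566 middle genes and 16.2% of the 690 late genes tested. Of genes that were lower, 72.3% of the 141 early, 49.7% of the 563 middle and 15.6% of the 659 late genes fell at 35 h. At 4 days the shares were 81.0%, 81.8% and 70.4% for genes that were higher and 85.8%, 88.1% and 86.0% for those that were lower. Between 4 days and 35 h, 58.4% of the late genes of the higher group were called higher at 4 days and 75.0% of those of the lower group were called lower. The counts at 35 h depended on single libraries. Without the R1 library of LFAI 35 h the shares of higher genes were 38.0% early, 32.0% middle and 6.66% late, where all genes stood at 3.84%, and those of lower genes were 49.6%, 24.5% and 3.19% against 2.82%. Without the R1 library of L2i they were 38.5%, 32.2% and 6.80% against 3.91%, and 60.3%, 28.6% and 4.70% against 3.45%. Without the CGR8 library of L2i 7.89% of the late genes that were lower were called at 35 h, against 5.05% of all genes. Without the CGR8 library of LFAI 35 h, 12.3% of late higher genes were called against 5.94% of all genes, and 10.6% of late lower genes against 5.44%.

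Transient genes were examined in the same way. Of 329 tested genes that were transiently higher, 41.3% rose at 35 h, against 8.34% of all genes. At 4 days 26.7% were called higher than in L2i and 24.3% lower, against 22.4% and 25.2% of all genes. Of 349 that were transiently lower, 33.0% fell at 35 h, against 8.04% of all genes. At 4 days 38.1% were called lower and 8.88% higher, against 25.2% and 22.4% of all genes. In the fits that follow, each without a library, the share of all genes called was smaller too. Those shares at 35 h are given above. Without the R1 library of LFAI 35 h, 23.6% of the transiently higher genes and 11.5% of the transiently lower genes were called at 35 h. Without the R1 library of L2i those shares were 24.5% and 17.8%, and without the CGR8 library of L2i 21.2% of the transiently lower genes were called. Without the CGR8 library of LFAI 4 d, 24.4% of the transiently lower genes were called lower at 4 days, against 18.3% of all genes.

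**Figure D4:**
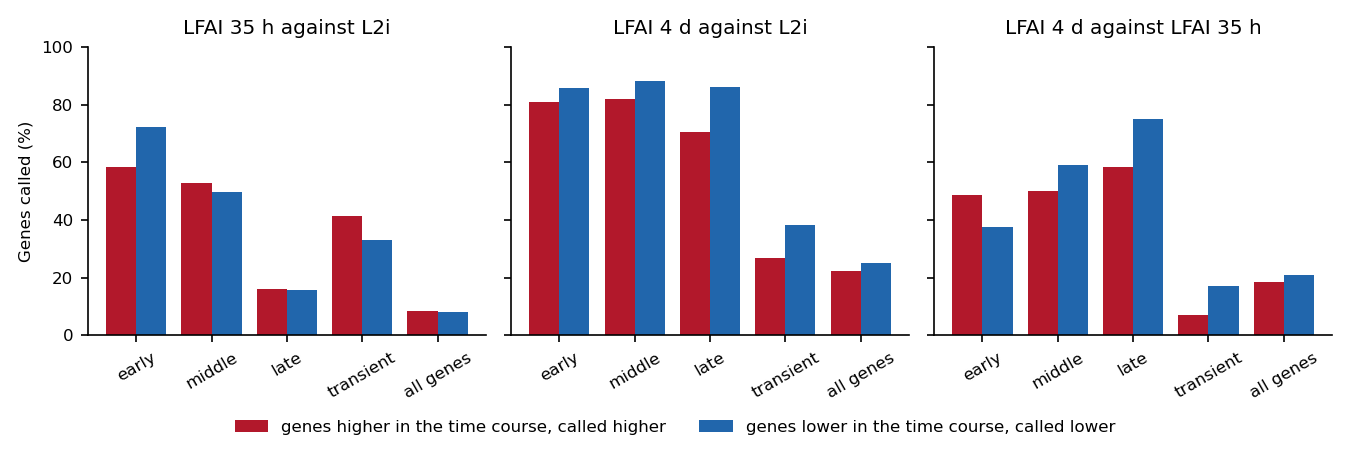
Percent of tested wave members called in the direction of their wave in the set with both lines (edgeR adjusted p under 0.05), beside all genes at 5 CPM, for 35 h against L2i, 4 days against L2i and 4 days against 35 h. Early and middle genes that were higher comprised 117 of 200 and 300 of 566 genes called at 35 h, and late genes stood at 16.2%, where all genes stood at 8.34%.

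Genes past 2-fold on day 4 were set against the 4-day libraries of both lines. Of the 2821 genes, 2819 were tested there and 2639 or 93.6% had the same direction after 4 days. Of these 2639, 1644 or 62.3% had a larger log2 difference in the set with both lines. Over the 2819 genes the median size was 2.31 there, against 1.92 on day 4 of the time course. These sizes are not on the same scale. The prior count of 2 shrinks time course differences at low counts, whereas the values of both lines came from the fit. Whether either set changed more was not tested. In the opposite direction 63 genes were called, 53 of them higher on day 4 of the time course and lower in both lines. They included the Zscan4, Usp17l and Tcstv families with 9 genes, germline genes such as Sycp1 and Taf7l, and Dnmt3l, described below.

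The lists of pathway genes were ordered by signalling, cell state and function. They are described by counts past 2-fold among members at 5 CPM, beside the shares for all genes given above. The median log2 difference of all genes at 5 CPM was 0.01, 0.01, −0.02 and −0.04 on days 1 to 4. Because a member could reach 5 CPM through the group in which it was high, the counts describe these members only.

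Most measured targets and feedback regulators of ERK were higher from day 2. Of 19 listed genes 17 reached 5 CPM, of which 3, 11, 10 and 10 were higher and 0, 0, 1 and 0 lower on days 1 to 4, with medians of 0.10, 1.42, 1.23 and 1.44 on the log2 scale. Their median difference between LFAI and LIM was −0.01 on day 1 and 1.58 on day 2. Spry4 had 1.31, 2.86, 86.1, 48.8 and 28.7 CPM, with its peak on day 2. Dusp6 had 4.73, 9.25, 78.6, 109 and 101 CPM and Dusp4, a related phosphatase, had 1.17, 2.86, 64.0, 84.3 and 39.6 CPM. Egr1, an immediate early transcription factor, had 0.728, 0.661, 2.94, 6.13 and 6.75 CPM and stayed low by comparison. Etv5 had 614, 571, 796, 541 and 483 CPM and Etv4 had 102, 55.9, 135, 97.2 and 73.7 CPM, and these ETS factors did not pass 2-fold on day 4. In both lines Dusp6 had 51.7 and 58.1 CPM in R1 and CGR8 after 35 h in LFAI, against 4.04 and 5.45 CPM in L2i. It rose at 35 h (log2 difference 3.54 ± 0.23 (SE), edgeR adjusted p = 0.000171) and stood at 164 and 120.0 CPM after 4 days (log2 difference 4.91 ± 0.23 (SE), edgeR adjusted p = 4.64e-06). Spry4 had 37.4 and 61.9 CPM at 35 h against 2.16 and 0.930 CPM in L2i (log2 difference 4.95 ± 0.45 (SE), edgeR adjusted p = 0.000418). Of all 15525 genes tested, 7.35% rose at 35 h and 21.5% at 4 days. Of the 19 genes, 8 rose at 35 h and 11 at 4 days, but without the R1 library of L2i 4 rose at 35 h, without the R1 library of LFAI 35 h 5, and without the R1 library of LFAI 4 d 7 rose at 4 days.

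Among FGF ligands and receptors, 7 of 10 reached 5 CPM. Fgf4, the ligand of naive cells, had 204, 459, 404, 288 and 188 CPM and was past 2-fold on day 1 alone. Fgfr1, the main receptor, had 177, 309, 184, 203 and 211 CPM and stayed within 2-fold. Fgfr2 had 2.40, 17.8, 7.90, 13.5 and 17.3 CPM and Fgf8, the ligand of the primitive streak, stayed at or below 4.26 CPM. Counts of members higher were 2, 4, 3 and 3 on days 1 to 4, and on day 1 these were Fgf4 and Fgfr2. Fgf5 in both lines had 14.5 and 4.61 CPM at 35 h and 159 and 146 CPM after 4 days in LFAI, against 0.0460 and 0.0664 CPM in L2i. Day 4 of the time course lay below both 4-day libraries. Fgf5 rose at 35 h (log2 difference 7.27 ± 0.84 (SE), edgeR adjusted p = 0.00114) and rose further from 35 h to 4 days (log2 difference 4.00 ± 0.46 (SE), edgeR adjusted p = 0.000304).

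More of the measured Nodal and Activin targets were higher than lower on each LFAI day. Of 10 listed 9 reached 5 CPM, of which 1, 5, 5 and 4 were higher and 0, 1, 1 and 0 lower on days 1 to 4. Their median log2 difference between LFAI and LIM was 0.06, 0.72, 1.49 and 1.13 on days 1 to 4. In both lines 9 were tested, of which 5 rose and 0 fell at 35 h, and 4 rose and 1 fell at 4 days. Skil, a feedback inhibitor of SMAD signalling, had 87.2, 116, 386, 407 and 412 CPM. Lefty1, a secreted antagonist of Nodal, had 28.1, 79.4, 116, 327 and 536 CPM and gained on every step, while Lefty2 had 62.7, 72.0, 134, 172 and 124 CPM. Nodal itself had 94.4, 103, 74.5, 78.1 and 75.0 CPM and stayed within 2-fold. In both lines Skil had 266 and 187 CPM at 35 h and 219.5 and 222 CPM after 4 days in LFAI, against 48.6 and 41.6 CPM in L2i. It rose at 35 h (log2 difference 2.33 ± 0.33 (SE), edgeR adjusted p = 0.00271) and at 4 days (log2 difference 2.29 ± 0.33 (SE), edgeR adjusted p = 0.000657). Lefty1 had its peak at 35 h in both lines, at 352 and 361 CPM, against 89.1 and 180.4 CPM at 4 days and 46.4 and 7.37 CPM in L2i, and the L2i libraries lay far apart.

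Most measured Wnt targets were lower on each LFAI day. Of 16 listed genes 12 reached 5 CPM, of which 7, 7, 8 and 8 were lower on days 1 to 4, with a median of −2.58 on day 4. Rnf43, which removes Wnt receptors from the surface, had 10.8, 0.441, 0.697, 0.216 and 1.21 CPM, and Tnfrsf19 had 71.4, 36.9, 13.6, 8.14 and 10.2 CPM. Lef1, a Wnt target that is also a gene of the early epiblast, had 17.8, 3.97, 120.1, 180.2 and 116 CPM, so it was low on day 1 and the only listed Wnt target past 2-fold higher on days 2 to 4. Tcf7 and Znrf3 stayed within 2-fold, with Tcf7 at 109.7, 70.6, 92.8, 108 and 110.2 CPM. In both lines Axin2 had 22.7 and 25.3 CPM at 35 h and 5.54 and 4.51 CPM after 4 days in LFAI, against 99.3 and 151 CPM in L2i, and it fell at 35 h (log2 difference -2.38 ± 0.22 (SE), edgeR adjusted p = 0.00048). Sp5 had 0.0652 and 0 CPM at 35 h against 28.6 and 44.8 CPM in L2i, with edgeR adjusted p = 0.00114 and no fold given because 1 of the 35 h libraries had 0 counts. Of 14 tested Wnt targets, 8 fell at 35 h and 10 at 4 days. The median log2 difference of the list between LFAI and LIM was 0.00 on day 1 and 0.43 on day 4.

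BMP targets and LIF targets gave mixed counts. Of 9 BMP targets 6 reached 5 CPM, with 1 higher and 1 lower on day 4. Id3 had 10.7, 2.86, 3.95, 1.01 and 3.69 CPM and Id1 had 2.99, 0.955, 5.73, 3.17 and 4.76 CPM, both encoding inhibitors of helix-loop-helix factors. In both lines 2 of the 9 rose and 3 fell at 4 days, and 1 rose without any 1 of the 4 libraries of these groups. LIF stayed in the medium throughout, yet 6 and 5 of 11 measured LIF and STAT3 targets were lower on days 3 and 4. Socs3, the feedback inhibitor that STAT3 induces, had 15.7, 16.9, 14.3, 11.1 and 22.8 CPM and stayed within 2-fold. Il6st, the shared receptor subunit gp130, had 171, 144, 111, 51.3 and 54.0 CPM, and Lifr had 81.9, 109, 139.7, 39.1 and 31.4 CPM. The list also holds naive factors such as Klf4 and Tfcp2l1, so its count is not separate from theirs. Il6st had 39.3 and 27.8 CPM after 4 days in both lines against 181 and 227 CPM in L2i (log2 difference -2.60 ± 0.22 (SE), edgeR adjusted p = 4.35e-05), and 9 of 12 LIF targets fell at 4 days.

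Naive pluripotency factors passed 2-fold on different days. All 19 reached 5 CPM, and 2, 11, 18 and 18 were lower on days 1 to 4, with a median of −4.18 on day 4. Tfcp2l1 was already lower on day 1, and Dppa3, a maternal factor also expressed in naive cells, had 23.7, 12.9, 9.07, 6.99 and 4.69 CPM. Nanog had 821, 1028, 171, 52.6 and 123 CPM, so it was above day 0 on day 1, lowest on day 3 and above that level on day 4. Klf4 had 147, 110.2, 31.1, 4.54 and 2.98 CPM, Klf2 had 152, 167, 69.8, 26.7 and 16.3 CPM and Prdm14, a repressor of FGF signalling and DNA methylation, had 82.5, 81.0, 12.5, 0.577 and 0.710 CPM. These 4 genes belonged to the middle wave. Esrrb had 773, 719, 328, 38.3 and 18.4 CPM and passed 2-fold on day 2, while Zfp42 (REX1) had 872, 1111, 586, 74.2 and 48.1 CPM and passed it on day 3. Nr0b1 had 38.4, 47.8, 72.6, 10.4 and 3.20 CPM, with its peak on day 2, and Zfp459, the exception on day 4, had 22.2, 20.3, 55.6, 21.5 and 11.9 CPM.

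In both lines all 19 naive factors fell at 4 days and 10 fell at 35 h. At 35 h 4 were called without the R1 library of L2i, 5 without the CGR8 library of L2i and 5 without the R1 library of LFAI 35 h. Nanog had 179.7 and 325 CPM at 35 h and 27.0 and 40.1 CPM after 4 days in LFAI, against 1169 and 971 CPM in L2i (log2 difference -2.08 ± 0.31 (SE), edgeR adjusted p = 0.00338 at 35 h). Zfp42 had 637 and 684 CPM at 35 h against 885 and 696 CPM in L2i, a difference within the test's spread (log2 difference -0.26 ± 0.15 (SE), edgeR adjusted p = 0.284). After 4 days Zfp42 had 12.5 and 10.6 CPM and had fallen (log2 difference -6.09 ± 0.19 (SE), edgeR adjusted p = 9.52e-07). In the time course it kept 48.1 CPM on day 4, above both 4-day libraries, and Esrrb kept 18.4 CPM against 8.37 and 4.44 CPM.

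Core pluripotency factors did not share this course. In the time course 0 of 11 genes were lower on any day, and 0, 6, 5 and 4 were higher on days 1 to 4. In both lines 5 rose at 35 h, or 3 without any 1 of the 4 libraries of these groups. At 4 days 2 rose and 3 fell against L2i, and 7 of the 11 were lower at 4 days than at 35 h. Utf1, a chromatin-associated factor of pluripotent cells, had 40.2, 65.1, 305, 322 and 254 CPM, and Lin28a, the RNA-binding inhibitor of let-7 maturation, had 95.7, 69.8, 479.9, 565 and 547 CPM. Tdgf1, the Nodal co-receptor Cripto, had 166, 204, 807, 603 and 793 CPM. In both lines Lin28a had 792 and 935 CPM after 4 days against 98.9 and 131 CPM in L2i (log2 difference 2.91 ± 0.21 (SE), edgeR adjusted p = 2.3e-05), whereas Sox2 fell to 92.3 and 81.9 CPM, against 304 and 322 CPM in L2i (log2 difference -1.84 ± 0.15 (SE), edgeR adjusted p = 3.82e-05). Of 9 genes of the let-7 axis 2 were higher on day 4, Lin28a and Lin28b, the second with 8.81, 8.89, 37.7, 81.5 and 99.9 CPM.

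Early epiblast genes were higher from day 2. All 19 reached 5 CPM, and 2, 18, 18 and 18 were higher on days 1 to 4, with medians of 0.26, 2.89, 3.78 and 3.47. Tead2 stayed within 2-fold at 55.6, 81.7, 85.0, 96.6 and 96.8 CPM. Sox11 had 3.13, 3.75, 42.8, 60.7 and 78.4 CPM, Sox4 had 8.08, 8.01, 60.7, 59.7 and 59.3 CPM and Grhl2, an epithelial transcription factor, had 6.12, 3.53, 118, 86.2 and 69.5 CPM. Pim2, a serine/threonine kinase gene, had 18.1, 24.7, 111, 515 and 661 CPM and Zic2 had 22.0, 45.5, 91.0, 86.1 and 108 CPM. In both lines 15 of the 19 rose at 35 h and 17 at 4 days, 0 fell, and no left-out library moved these counts by over 1.5 times. Pou3f1 had 62.5 and 21.8 CPM at 35 h and 188 and 144 CPM after 4 days in LFAI, against 1.61 and 1.06 CPM in L2i (log2 difference 6.92 ± 0.59 (SE), edgeR adjusted p = 4.49e-05 at 4 days). Otx2 had 249.8 and 158 CPM at 35 h, against 12.1 and 7.30 CPM in L2i (log2 difference 4.38 ± 0.37 (SE), edgeR adjusted p = 0.00035). Wnt8a was 10.4 CPM on day 4 of the time course but at most 1.30 CPM in any LFAI library of both lines.

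Genes of the primitive streak, mesoderm and endoderm were low in LFAI in the time course. Their summed level was 125.6 CPM on day 0, most of it Nkx1-2, described above, and 16.4 to 30.8 CPM on LFAI days 1 to 4. Of 14 listed 5 reached 5 CPM, and of these 4, 3, 2 and 2 were lower on days 1 to 4. Mixl1 had 1.02, 1.18, 0.310, 1.08 and 1.21 CPM, Foxa2 had at most 0.360 CPM, and Cer1 had 0 counts in all 5 libraries. Eomes had 13.3, 9.99, 9.38, 9.80 and 6.68 CPM and Gsc, an organiser homeobox gene, had 2.55, 2.35, 0.0775, 0 and 0.0710 CPM. Wnt3 had 0.801, 0.294, 0.155, 5.98 and 8.81 CPM and was the listed gene past 2-fold higher on day 4. In both lines 9 of the 14 streak genes were tested, of which 1 rose and 5 fell at 35 h. At 4 days 3 rose, Eomes and Wnt3 among them, and 3 fell, against 21.5% and 23.3% of all genes tested. Neural progenitor genes at 5 CPM were Sox1 with 3.93, 10.2, 18.5, 17.7 and 24.4 CPM, Pax6 with 1.09, 6.90, 6.20, 6.77 and 9.31 CPM and Nes, which encodes the filament nestin, with 46.4, 137, 34.7, 94.3 and 164 CPM. All 3 were higher on day 4, and Pax6 had 18.1 CPM on LIM day 4, above the LFAI level. In both lines 5 of the 10 neural genes were tested, of which 1 rose and 3 fell at 4 days. Without the CGR8 library of L2i 2 rose, and 1 fell without the R1 library of L2i or without the CGR8 library of LFAI 4 d.

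**Figure D5:**
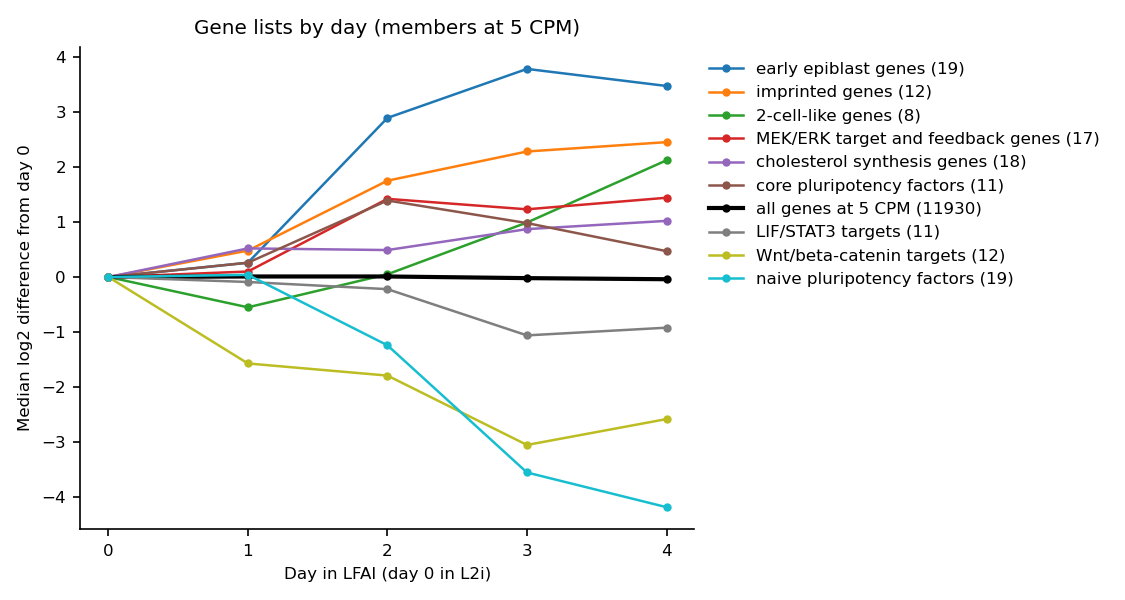
Median log2 difference from day 0 by day for 9 of the gene lists and for all 11930 genes at 5 CPM (thick black line), with the number of members at 5 CPM in the legend. On day 4 early epiblast genes stood at 3.47 and naive factors at −4.18, and Wnt targets were already at −1.57 on day 1.

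Genes of the DNA methylation machinery took different courses. Of 9 genes 3 were higher and 1 was lower on day 4 of the time course, while in both lines 3 rose and 6 fell at 4 days. Dnmt3b, a de novo methyltransferase, had 118, 88.3, 945, 1832 and 2168 CPM and Dnmt3a, the other one, had 102, 179, 886, 1019.8 and 687 CPM. Dnmt3l, their catalytically inactive partner, had 24.2, 45.6, 706, 509 and 172 CPM, so it peaked on day 2. Dnmt1, which copies methylation at replication, had 614, 599, 598, 509.6 and 468 CPM and its partner Uhrf1 had 730.1, 689, 629, 482 and 454 CPM. Tet2, which oxidises methylcytosine, had 202, 225, 171, 46.3 and 21.8 CPM and Tet1 had 481, 726, 1293, 779 and 593 CPM, with its peak on day 2. In both lines Dnmt3b had 1373 and 729.9 CPM at 35 h and 1998 and 2175 CPM after 4 days in LFAI, against 109 and 103 CPM in L2i (log2 difference 4.30 ± 0.29 (SE), edgeR adjusted p = 1.53e-05 at 4 days). Dnmt3l had 597 and 469 CPM at 35 h, and 10.7 and 10.5 CPM after 4 days, against 40.8 and 21.3 CPM in L2i, so it rose at 35 h (log2 difference 4.09 ± 0.29 (SE), edgeR adjusted p = 0.000205) and fell below L2i at 4 days (log2 difference -1.56 ± 0.28 (SE), edgeR adjusted p = 0.00213). On day 4 of the time course it was still 7.10-fold higher than on day 0.

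Germline genes known to be silenced by promoter methylation had more members higher than lower on day 4, and more called lower than higher in both lines. Of 17 listed 14 reached 5 CPM, and 9 were higher and 4 lower on day 4. Mael had 1.89, 3.38, 17.0, 37.1 and 31.4 CPM, Ddx4, the germ cell helicase Vasa, had 6.41, 7.05, 17.7, 31.8 and 42.1 CPM and Tdrkh, a piRNA pathway gene, had 1.24, 1.98, 3.33, 22.0 and 21.5 CPM. Dazl, an RNA-binding protein gene of germ cells, had 110.2, 69.3, 20.1, 20.4 and 9.31 CPM and Rpl10l had 166, 164, 144, 110.0 and 43.3 CPM. In both lines 2 of the 17 rose and 11 fell at 4 days, and 7 fell without the CGR8 library of L2i or without either LFAI 4 d library. Hormad1, a meiosis gene, had 0.126 and 0.327 CPM after 4 days in both lines against 19.7 and 29.5 CPM in L2i, and 22.0, 19.0, 37.4, 36.3 and 19.0 CPM in the time course. Mael had 3.21 and 3.92 CPM after 4 days in both lines against 3.72 and 5.51 CPM in L2i (log2 difference -0.37 ± 0.55 (SE), edgeR adjusted p = 0.619).

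Genes of the 2-cell-like state, a rare cell state with transcripts of the 2-cell embryo, were higher late in the time course. Of 11 listed 8 reached 5 CPM, and 0, 0, 4 and 8 were higher on days 1 to 4, with a summed level of 42.5 CPM on day 0 and 197 CPM on day 4. Zscan4f had 8.81, 7.12, 15.2, 25.4 and 48.3 CPM and Zfp352 had 0.728, 0.367, 0.775, 1.73 and 6.75 CPM. The Zscan4 and Usp17l families consist of near-identical copies, between which the counting could split or lose reads. In both lines 9 of 9 tested genes fell at 4 days. Zscan4f had 0.378 and 0.457 CPM after 4 days against 2.16 and 17.1 CPM in L2i, so the L2i libraries lay far apart. The count was 1 without the CGR8 library of L2i, 1 without the R1 library of LFAI 4 d and 0 without the CGR8 library of LFAI 4 d.

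Imprinted genes were mostly higher from day 2, with 12 of 14 at 5 CPM and 1, 10, 11 and 11 of them higher on days 1 to 4. Meg3 had 140.4, 228, 496, 892 and 843 CPM and Rian had 202, 309.6, 647, 1114 and 1166 CPM, both long noncoding RNAs of the Dlk1-Dio3 cluster, and Peg10 had 39.2, 25.9, 369.5, 215 and 278 CPM. Plagl1, a zinc finger gene, was the exception with 178, 75.9, 3.95, 5.12 and 7.32 CPM. Rian had 688 and 781 CPM after 4 days in both lines against 73.6 and 154 CPM in L2i, and 9 of 14 imprinted genes rose at 4 days. Peg10 had 72.4 and 16.3 CPM after 4 days there against 56.1 and 37.5 CPM in L2i (log2 difference -0.08 ± 0.61 (SE), edgeR adjusted p = 0.928), a difference that was not called.

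Genes of apical polarity, tight junctions and the lumen gave 7 higher and 1 lower among 19 measured on day 4. Podxl, the sialomucin of the lumen surface, had 14.6, 34.1, 52.3, 95.2 and 108 CPM. Cldn6, a claudin of the epiblast, had 5.83, 6.83, 20.4, 52.7 and 95.5 CPM, Cldn7 had 2.55, 0.514, 3.64, 8.86 and 32.0 CPM and Crb3, an apical polarity protein gene, had 1.89, 2.06, 5.58, 10.5 and 15.9 CPM. Marveld3 had 0.801, 0.294, 1.01, 4.18 and 9.52 CPM, while Tjp1, Pard3 and Prkci stayed within 2-fold. Cldn6, Cldn7 and Crb3 were highest on day 4. In both lines Cldn6 had 372 and 337 CPM after 4 days against 9.24 and 4.58 CPM in L2i (log2 difference 5.66 ± 0.43 (SE), edgeR adjusted p = 2.68e-05), and Cldn7 had 135 and 126 CPM against 3.95 and 1.53 CPM (log2 difference 5.53 ± 0.42 (SE), edgeR adjusted p = 2.74e-05). Both were higher there than on day 4 of the time course, and 12 of 19 genes of the list rose at 4 days. Cldn4 was lower on day 4 of the time course, with 75.8, 86.9, 31.0, 18.6 and 22.6 CPM, and had 162 and 106 CPM after 4 days in both lines against 83.9 and 87.3 CPM in L2i.

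Basement membrane, integrin and cadherin genes included members higher and lower. Of 18 basement membrane and integrin genes 3 were higher and 5 lower on day 4. Nid1, the linker nidogen 1, had 486, 656, 95.7, 24.4 and 21.9 CPM, Lamc1 had 919.7, 1304, 672, 326 and 314 CPM and Lama1 had 73.5, 51.3, 16.0, 7.78 and 11.1 CPM, whereas Lamb1 had 40.3, 50.8, 66.2, 137 and 189 CPM and Col4a1 had 16.5, 55.2, 51.7, 39.4 and 62.3 CPM. Nid1 had 14.2 and 5.82 CPM after 4 days in both lines against 552 and 518 CPM in L2i (log2 difference -5.74 ± 0.47 (SE), edgeR adjusted p = 3.7e-05). Of 8 measured cadherin and mesenchymal genes 4 were higher and 3 lower on day 4. Cdh1 (E-cadherin) had 1132, 1059, 892, 813 and 939 CPM and stayed within 2-fold, Cdh2 (N-cadherin) had 4.30, 3.38, 6.43, 12.3 and 20.6 CPM, and Epcam had 88.5, 64.3, 303, 238 and 266 CPM. Fn1 (fibronectin) had 1990.3, 2244, 1304, 726 and 515 CPM and Vim (vimentin) had 250.1, 218, 193, 160.1 and 119 CPM, and both were lower on day 4.

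Glycolysis, respiration and cholesterol synthesis genes followed. Of 19 glycolysis genes 5 were higher and 3 lower on day 4. Slc16a3, a lactate exporter gene, had 46.8, 68.9, 291, 311 and 332 CPM and Pfkl had 115, 134, 323, 436 and 435 CPM, while the glucose transporter gene Slc2a3 had 1738, 1699, 703, 256 and 380.4 CPM and Hk1, a hexokinase gene, had 204, 235, 60.9, 33.4 and 38.1 CPM. Slc16a3 had 320.5 and 377 CPM after 4 days in both lines against 10.7 and 16.2 CPM in L2i (log2 difference 4.71 ± 0.56 (SE), edgeR adjusted p = 0.000249). Of 16 mitochondrial respiration genes 14 stayed within 2-fold on day 4, and Cox7a1 with 20.2, 22.0, 5.58, 3.68 and 2.84 CPM and Cox5a with 290.2, 324, 169.8, 126 and 123 CPM were lower. All 18 cholesterol synthesis genes were measured, and 0, 0, 6 and 9 were higher on days 1 to 4, with a list sum of 2744 CPM on day 0 and 5359 CPM on day 4. Lss, lanosterol synthase, had 128, 185, 228, 351 and 409 CPM and Hmgcs1 had 461, 729, 719.9, 984 and 1108 CPM. In both lines Lss had 248 and 238 CPM after 4 days against 79.7 and 86.0 CPM in L2i (log2 difference 1.55 ± 0.12 (SE), edgeR adjusted p = 3.03e-05), and 10 of the 18 rose, or 5 without the R1 library of L2i.

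Regulators of the cell cycle and stress were the last lists. Of 15 genes of the Myc family and of G1, 5 were higher and 1 was lower on day 4. Myc had 6.48, 1.18, 70.4, 52.0 and 44.0 CPM, so it was lowest on day 1 and highest on day 2, and Mycn had 74.6, 116, 225, 140.1 and 163 CPM. Cdkn1c, an imprinted inhibitor of cyclin-dependent kinases, had 0.947, 5.51, 33.7, 74.4 and 61.7 CPM, Ccnd2 had 0.364, 1.32, 15.9, 8.72 and 21.2 CPM and Ccnd3 had 167, 219.7, 181, 89.4 and 73.4 CPM. Myc had 38.3 and 34.1 CPM at 35 h in both lines against 8.09 and 7.97 CPM in L2i (log2 difference 2.17 ± 0.31 (SE), edgeR adjusted p = 0.00277). Of 11 p53 targets 1 was higher, Bbc3, and 1 lower, Cdkn1a (p21), on day 4, the second with 282, 157, 61.3, 103 and 64.1 CPM. Cdkn1a had 47.6 and 70.9 CPM after 4 days in both lines against 248 and 236 CPM in L2i (log2 difference -2.03 ± 0.19 (SE), edgeR adjusted p = 7.68e-05). Of 11 measured genes of the integrated stress response 3 were higher and 1 lower on day 4, and the sum of the list was 1803 CPM on day 4 against 2256 CPM on day 0. Asns, asparagine synthetase, had 939, 519.8, 463, 396 and 235 CPM, Chac1 had 8.30, 16.2, 48.7, 32.3 and 35.7 CPM and Atf4, the central factor, had 289, 379, 416, 311 and 215 CPM. In both lines 6 of 12 genes of the list rose and 1 fell at 4 days, with a median log2 difference of 1.06. The number that rose depended on single libraries.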

How the data were processed

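The deposited files hold whole-number read counts per gene, 1 file a library with 47729 genes. Per the submitters' processing notes, HISAT2 2.0.4, HTSeq 0.6.1, DESeq2 1.10.1 and the mouse build GRCm38 (mm10) were used. Per the labels' protocols, libraries were made with a stranded mRNA kit. The strand setting of the counting and the annotation release are not given in the sources used here. Entries of the counter that name no gene (47.7% to 51.9% of all entries) were left out. A symbol was matched to 98.94% of genes.

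CPM is the deposited count per 1000000 of the library's gene counts times its TMM factor (0.970 to 1.055 in the time course, 0.964 to 1.033 in the other set). Log2 differences in the time course used edgeR 4.0.16 (R 4.3.3, limma 3.58.1) with TMM factors and a prior count of 2, and a gene needed 5 CPM in at least 1 of the 5 libraries. In the set with both lines all 8 libraries entered 1 edgeR quasi-likelihood fit of 15525 genes (4 residual degrees of freedom), with Benjamini-Hochberg adjustment over all genes and a threshold of 0.05. The scripts were run on simulated counts as a check of the code. For the waves these held counting error only, with changes and levels above the cut-offs used here. They say nothing of the spread between cultures. No 2 libraries held identical counts.

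R1 and CGR8 pair the groups of that set by cell line, and the deviations of same-line libraries from their group means correlated at 0.04 to 0.40. Nothing in the labels shows separate cultures of a line within a group, so the spread between libraries is that between the lines.

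The genes, the 28 lists and the waves were chosen with earlier results of these data known. Named genes are a panel of 34, the 6 with the largest difference in each wave and direction that reached 10 CPM, up to 5 of each list, and 5 each way that moved on every day. Some genes that meet this rule are not reported here. Other list members were named after their values were seen. Of 382 listed names 2 were not matched. Alternatives were another scaling, prior count, filter, fold or test, the cell line as a block, and leaving out each library. Promoters came from a RefSeq table of GRCm38.p6.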

Additional observations from a re-analysis of the deposited data

Results flagged for a closer look

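Of the genes chosen by the naming rule, 11 were higher on LFAI day 4 than on day 0 of the time course, while both R1 and CGR8 were lower after 4 days in LFAI than in L2i in the other set. Over all genes 53 were higher on day 4 and called lower in both lines, and not all of the 11 were called. The values below are log2 differences with 1 library a group in each line, and the differences between the sets were not tested. Coating, sequencing chemistry and passages differ between the sets and cannot be told apart.

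Among genes of the 2-cell-like state, Zscan4f stood at 2.43 on day 4, against −2.19 in R1 and −4.89 in CGR8. Zscan4c stood at 2.13, against −1.12 and −6.24 in the same lines, and Zfp352 at 2.97, against −3.03 and −5.68. Usp17la stood at 2.32, against −3.67 in R1 and −6.09 in CGR8, and Usp17lb at 2.10, against −3.07 and −6.88. Zscan4 and Usp17l are multigene families whose near-identical copies can share reads.

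Among germline genes and the methylation machinery, Mael stood at 3.95 on day 4, against −0.21 in R1 and −0.48 in CGR8. Slc25a31, an ADP/ATP carrier gene of the germline, stood at 2.82, against −1.85 and −1.44. Dnmt3l stood at 2.82, against −1.92 in R1 and −1.01 in CGR8. Of the neural genes, Pax6 stood at 2.93, against −1.65 in R1 and −2.53 in CGR8, and Sox1 at 2.59, against −0.61 and −1.03. Tdgf1, the Nodal co-receptor gene, stood at 2.25 on day 4, against −0.25 in R1 and −0.06 in CGR8, where the difference in both lines is small.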

How the results depend on the processing

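The median log2 difference of all genes on day 4 was −0.011 with DESeq2 size factors and 0.022 with library totals, against −0.036 as reported, and both scalings kept every count of the time course within 1.5 times. With 5 CPM lowered to 1 CPM, higher and lower genes numbered 718 and 597 on day 1, 1654 and 1618 on day 2, 2228 and 1975 on day 3, and 2497 and 2050 on day 4. The early wave then held 322 and 254, the middle wave 880 higher, the late wave 1295 higher and transient genes 619 and 711. Day steps comprised 1315, 2986, 2124 and 1055 genes, and LFAI and LIM differed at 505, 2831, 3862 and 4105. With no filter the days gave 1233 and 1150, 2744 and 2537, 3078 and 2721, and 3675 and 2810. The waves gave 371 and 391 early, 1037 and 1022 middle, 2267 and 1397 late, and 1836 and 1476 transient. Steps gave 2383, 4904, 3800 and 2027, and LFAI against LIM 2009, 5114, 5866 and 6339. At 4-fold the days gave 63 and 79, 347 and 337, 593 and 563, and 725 and 625. The waves gave 27 and 44 early, 249 and 219 middle, 449 and 362 late, and 97 and 127 transient. Steps gave 142, 564, 233 and 16, and LFAI against LIM 8, 541, 963 and 1047. A prior count of 0.5 gave 120 genes between LFAI and LIM on day 1.

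Leaving out 1 day at a time gave 204 to 225 early higher and 141 to 161 early lower genes, 588 to 766 and 583 to 705 middle, 488 to 1232 and 529 to 1217 late, and 201 to 280 and 191 to 318 transient genes. Leaving out 1 library of the set with both lines gave 507 to 1132 genes higher and 369 to 1040 lower at 35 h, 2395 to 3332 and 2495 to 3640 at 4 days, and 1440 to 2668 and 1879 to 3090 between 4 days and 35 h. With the cell line as a replicate block, 1387 genes were higher and 1348 lower at 35 h, 3573 and 3798 at 4 days, and 3004 and 3175 between them. The block lifted the FGF ligands and receptors called higher at 4 days to 5, against 3. Values of single genes were counted once for each comparison and alternative, so the same gene enters many times. Fits without a library outside the comparison are included. Of these values, 6733 kept their direction and side of the threshold, 270 lost the call, 134 gained it and 0 reversed. The causes were not tested. With 1 library a day, the spread between cultures is unknown for every value of the time course.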
